A study of Mus musculus with 28 samples.

Results

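Tubular cells of mice whose kidneys had undergone ischemic injury and which were treated with exosomes were compared with tubular cells of uninjured sham mice. The comparison took in 6 of the 28 samples of the series, 3 libraries labelled IRI M tub + EXO and 3 labelled Sham M PTs. Its features were all 25412 genes of the authors' deposited table for this pair, of which 15904 carried an adjusted p and were counted as tested. All mice were male FVB mice. The sham group had no injury, and the treated group had acute kidney injury and received exosomes. The source and dose of the exosomes, the time after injury and the age of the mice are not given in the sources used here. The other tubular groups set beside this pair are untreated injury (3 libraries), injury with scrambled miRNA (3 libraries) and injury with a mimic of miR-486-5p, a small regulatory RNA (2 libraries). Endothelial exosome-treated and sham groups, 3 libraries each and taken with microbeads against the endothelial protein CD31, are cited for comparison. Tubular cells were microdissected from digested kidneys, and messenger RNA was selected by its poly(A) tail, per the labels' protocols.

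The design bounds every value below. Sham and untreated libraries are, per the labels, reanalyses of samples from an earlier deposit, and the third sham library draws on 2 earlier samples. The exosome, scrambled-miRNA and mimic libraries belong to the later deposit, so the effects of treatment and of deposit cannot be told apart in any comparison with sham or with untreated injury. Sham and untreated groups were used here only through the authors' deposited tables, so fold changes, standard errors (SE) and adjusted p values against them are the authors' own. Levels in TPM, an abundance scaled by transcript length and by the library total, are given for the exosome, scrambled-miRNA and mimic libraries. Nothing in the labels ties a library to 1 animal, so the p values measure the spread between these samples.

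The proximal tubule recovers most of the filtered salt, sugar, amino acids and protein, and pays for this transport with mitochondrial respiration fed largely by fatty acids. Ischemia stops that supply of energy. Injured tubule cells are known to induce a set of damage genes, among them Havcr1, which encodes KIM-1, and Lcn2, which encodes NGAL, while they lower transporters and metabolic enzymes. Immediate early genes and targets of NF-kB, a transcription factor of inflammation, are known to answer cell stress within minutes to hours, and they encode their own brakes. Exosomes are small vesicles that can carry miRNAs between cells.

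The exosome libraries held 13.3, 13.0 and 11.3 M reads assigned to transcripts (M, 1000000 reads), the scrambled-miRNA libraries 8.58 to 13.0 M and the mimic libraries 23.7 and 25.3 M. Transcripts under 1000 bases took 28.8 to 29.8% of reads in the exosome libraries, 23.5 to 28.7% with scrambled miRNA and 23.1 and 23.5% with the mimic. The share of mitochondrially encoded reads was 9.64, 10.8 and 14.3% with exosomes, against 4.51 to 9.73% and 5.37 to 8.30% in the other treated groups. Proximal tubule identity was plain: the 36 transporter genes listed summed to 4737 to 5469 TPM in the exosome libraries, and none was at 0. Of the scrambled-miRNA libraries, the first stood apart in the damage gene Havcr1, at 5.64 TPM against 169.9 and 376 in the others.

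In the authors' deposited table, 993 of the 15904 tested genes were higher with exosomes than in sham (6.24%) and 789 were lower (4.96%), at an adjusted p under 0.05. At an unadjusted p under 0.05 there were 4001. The median log2 fold was -0.02 over all tested genes, 0.83 over the genes called higher and -0.99 over those called lower. Untreated injury differed from sham in more genes, with 1946 of 16874 higher (11.5%) and 1460 lower (8.65%), and that comparison lies within the earlier deposit. The mimic group differed from sham in few, with 8 of 17842 higher (0.0448%) and 176 lower (0.986%). The direct table of untreated against exosome-treated injury called 3398 of 19299 genes higher in untreated injury (17.6%) and 2570 lower (13.3%). These comparisons share the sham or the exosome libraries, so their calls are given side by side and not counted against each other. Gene lists below are described by how many members were called, read against these shares.

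**Figure D1:**
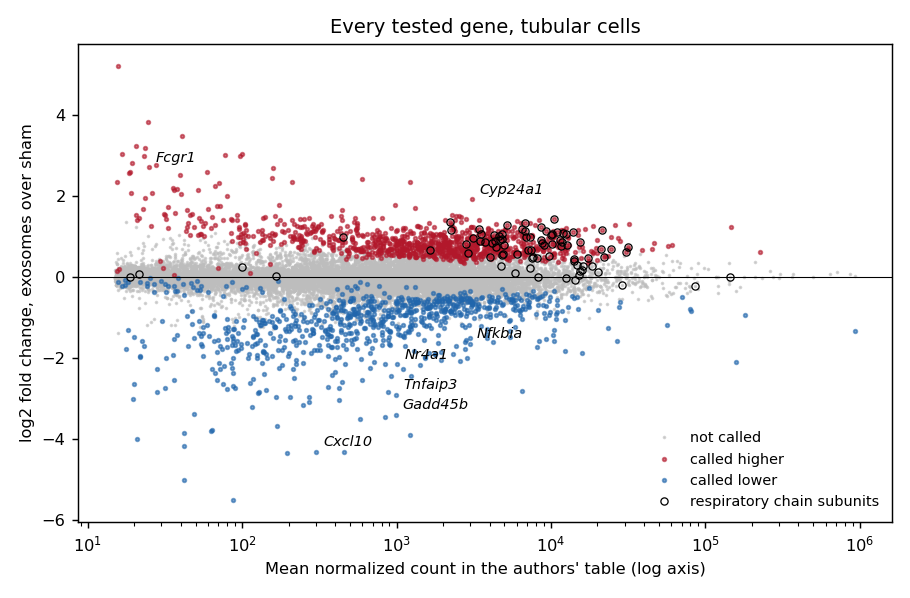
Each point is a tested gene, with the mean normalized count of the authors' deposited table on a log axis and the log2 fold change of exosome-treated injury over sham on the vertical axis. Red and blue points passed an adjusted p of 0.05, and black rings mark nuclear-encoded respiratory chain subunits, of which 60 of 83 lie among the genes called higher and none among those called lower.

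The immediate early genes were the listed group with the largest share of lower calls. Of 26 tested, 13 were lower than sham, none was higher, and all 26 folds were below 0, with a median log2 fold of -0.63 in the authors' deposited table. Gadd45b, a stress sensor of the growth arrest family, lay at chr10:80930073-80932204 on GRCm38 and stood at -3.40 on the log2 scale (SE 0.83, adjusted p = 0.000128). The orphan nuclear receptor Nr4a1 stood at -2.15 (SE 0.51, adjusted p = 0.00012) in the authors' deposited table, and the AP-1 subunit Fosl2 at -2.00 (SE 0.60, adjusted p = 0.00141). Ier3, an early response gene that affects cell survival, was at -1.90 (SE 0.52, adjusted p = 0.000654) in that deposited table by the authors. Klf4, Btg2, Socs3, Zfp36, Egr1, Jund, Ccn1, Nr4a2 and Fosl1 made up the rest of the lower calls. The classical AP-1 genes did not pass: Fos had a log2 fold of -0.25 (adjusted p = 0.349), Jun -0.66 (adjusted p = 0.111) and Junb -0.85 (adjusted p = 0.0809) in the authors' deposited table.

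Levels of these genes were low in the exosome libraries. Gadd45b measured 1.39, 0.888 and 1.23 TPM with exosomes, 1.90, 4.58 and 2.46 with scrambled miRNA and 1.88 and 0.532 with the mimic. All 3 exosome libraries thus lay below all scrambled-miRNA libraries but not below both mimic libraries. Nr4a1 measured 3.83, 1.36 and 1.41 TPM with exosomes, 4.05, 4.92 and 1.91 with scrambled miRNA and 1.38 and 1.00 with the mimic, so that the first exosome library overlapped the scrambled-miRNA range. Ier3 measured 5.06, 3.72 and 5.53 TPM with exosomes, 14.99, 23.4 and 11.6 with scrambled miRNA and 5.90 and 4.21 with the mimic. Here the exosome and mimic ranges overlapped and the scrambled-miRNA libraries were all higher. Egr1 varied within the group, at 6.97, 9.96 and 24.2 TPM. The third exosome library was the highest of its group for Egr1 and, at 13.2 TPM against 1.75 and 2.20, for the cytokine signalling inhibitor Socs3.

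In the authors' deposited tables, untreated injury had 5 of the same 26 genes higher than sham and none lower, and 20 were higher in untreated than in exosome-treated injury. The mimic group, also of the later deposit, had 7 of the 26 lower than sham and none higher. In the table of untreated against scrambled-miRNA-treated injury, where 1866 of 16874 genes were higher in untreated injury (11.1%) and 1139 lower (6.75%), 16 of the 26 were higher in untreated injury and none was lower. That last comparison shares no library with exosome against sham but crosses the same deposits. Of the 13 genes lower with exosomes than in sham, 11 were also lower with scrambled miRNA than in untreated injury, the exceptions being Ccn1 and Fosl1. Among all 789 genes lower than sham that held for 33.1%. The part of the deposit in the lower level of immediate early genes cannot be told apart from that of the exosomes.

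Among NF-kB targets and cytokines, 8 of 31 tested were lower than sham and 1 was higher in the authors' deposited table. Cxcl10, a chemokine that draws T cells, (chr5:92346638-92348889), had a log2 fold among the largest named, at -4.32 (SE 0.82, adjusted p = 2.2e-06). Inhibitors that NF-kB induces against itself were among the lower calls: the deubiquitinase gene Tnfaip3 at -2.91 (SE 0.81, adjusted p = 0.000644) and the inhibitor gene Nfkbia at -1.65 (SE 0.69, adjusted p = 0.0112) in the authors' deposited table. The NF-kB subunits Relb (-1.58, SE 0.70, adjusted p = 0.0143) and Nfkb2 (-1.04, adjusted p = 0.0106), the co-regulator Bcl3 (-1.09), the adhesion molecule Icam1 (-0.95) and the chemokine Cx3cl1 (-0.86) completed them in that table deposited by the authors. Ccl2, which attracts monocytes, was the one called higher, at 1.33 (SE 0.97, adjusted p = 0.0484) in the authors' deposited table, on 8, 8 and 6 reads in the exosome libraries.

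Sequences just before the start of Cxcl10 and Nfkbia are shown because these are the inhibitor and the chemokine whose folds the paragraph above turns on and because both hold matches to kappa-B, the site NF-kB binds. They are taken from RefSeq on GRCm38.p6 and read on the minus strand, and capitals mark the match.
Cxcl10 distal, chr5:92349029-92349058: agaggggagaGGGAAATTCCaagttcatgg
Cxcl10 proximal, chr5:92348973-92349002: cggtttacagGGGACTTCCCtcgggttgcg
Nfkbia, chr12:55492657-55492686: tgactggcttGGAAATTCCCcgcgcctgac
The matches begin 159 and 103 bases before the Cxcl10 start and 29 bases before that of Nfkbia. The Nfkbia match reads on the opposite strand. Both strands of the 250 bases before each start were searched, and a window counted once however many matches it held. Of 32851 such windows, 3.90% held the kappa-B pattern. Among the 8 lower genes of the list, 7 had a window and 4 of these held a match (Cxcl10, Nfkb2, Nfkbia and Tnfaip3). Among the 23 tested genes that were not lower, 13 had a window and 6 held one. The cyclic AMP element TGACGTCA occurred in 1.55% of windows. It was found in 1 of 11 lower immediate early genes with a window (Btg2) and in 1 of 9 of the others (Dusp1). A gene counted if any of its windows held a match, so these gene counts and the shares of windows are unlike measures. A match is a string of letters and not evidence of binding.

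Cxcl10 measured 0.575, 0.500 and 0.799 TPM in the exosome libraries, on 14, 13 and 21 reads, 0.720, 5.01 and 1.69 TPM with scrambled miRNA and 0.537 and 0.0692 TPM with the mimic. The groups overlapped. Nfkbia measured 9.93, 8.01 and 10.8 TPM with exosomes, 17.6, 32.6 and 14.9 with scrambled miRNA and 14.1 and 8.02 with the mimic, so that every exosome library lay below every scrambled-miRNA library. Tnfaip3 was at 0.271, 0.286 and 0.384 TPM with exosomes, all below the 0.568 to 1.83 with scrambled miRNA, and at 0.498 and 0.0616 with the mimic. The direct test of untreated against exosome-treated injury called 24 of 31 list members higher and 2 lower in untreated injury, per the authors' deposited table. Untreated injury itself had 17 of 31 higher than sham and 2 lower. In untreated against scrambled-miRNA-treated injury, which crosses the same deposits, 10 of 31 were higher in untreated injury and 1 was lower. Of the 8 genes lower than sham, 4 (Icam1, Nfkbia, Relb and Tnfaip3) were also lower with scrambled miRNA than in untreated injury. Among all genes lower than sham that held for 33.1%. For Cxcl10 the untreated-injury fold over sham in the authors' deposited table was -0.22 (adjusted p = 0.531), for Nfkbia 0.35 (adjusted p = 0.377) and for Tnfaip3 0.90 (adjusted p = 0.0919). In the mimic group, folds in the authors' table are pulled strongly to 0, and the adjusted p against sham was 8.72e-06 for Cxcl10, 0.082 for Nfkbia and 0.0134 for Tnfaip3.

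Interferon response genes gave 1 call. Of 27 tested, Irf1 alone was called, at a log2 fold of -2.45 (SE 0.70, adjusted p = 0.000882) in the authors' deposited table, and the effector genes Ifit1 and Isg15 stood at 0.09 and 0.10 with no call. Irf1, a transcription factor that both interferon and NF-kB induce, measured 3.85, 2.21 and 2.72 TPM with exosomes, 3.88 to 8.49 with scrambled miRNA and 1.01 and 0.617 with the mimic. Exosome libraries therefore lay between the other treated groups. None of 16 genes of the major histocompatibility complex was called, and of 20 complement and acute phase genes 2 were lower, Cp at -2.03 and Pigr at -1.26 in the authors' deposited table.

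**Figure D2:**
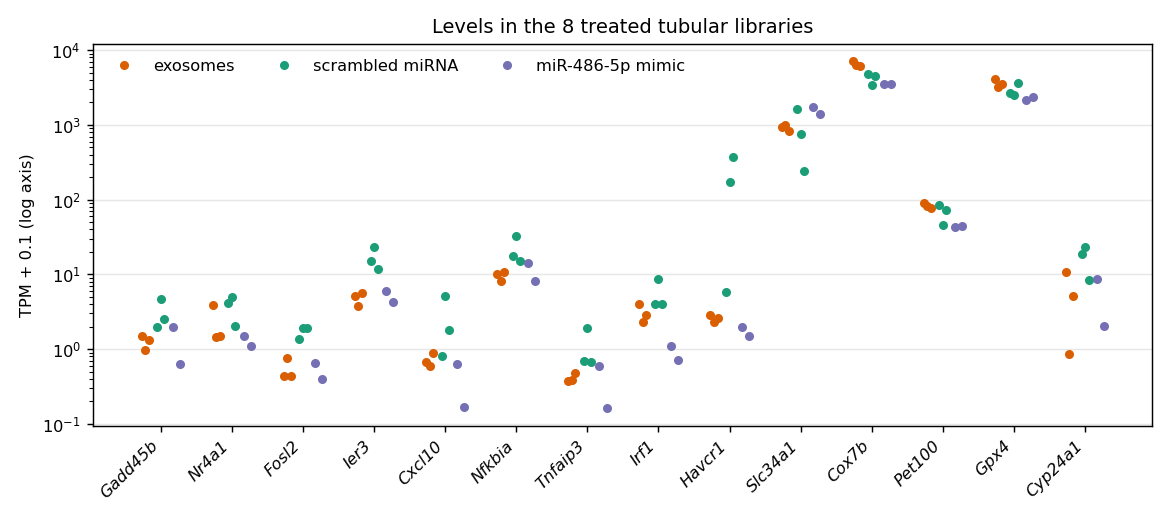
Levels of 14 genes in the 8 treated tubular libraries, as TPM plus 0.1 on a log axis, 1 point per library. For Ier3, Nfkbia and Tnfaip3 the 3 exosome points lie below the 3 scrambled-miRNA points, while for Cox7b they lie above every other point, and Havcr1 shows the first scrambled-miRNA library at 5.64 TPM apart from the 2 others.

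Most damage genes of the tubule did not pass the test against sham, and those that did were mostly lower. Of 29 tested injury and repair genes, 1 was higher than sham and 9 were lower in the authors' deposited table, with a median log2 fold of -0.15. The higher one was Ccl2. Havcr1 (chr11:46735080-46779578 on GRCm38) had a fold of 0.08 (SE 0.33, adjusted p = 0.637) and Lcn2 of -0.01 (SE 0.32, adjusted p = 0.968) in that table by the authors, deposited with untreated-injury folds of 5.19 and 6.84. The tested difference between untreated and exosome-treated injury was 4.17 for Havcr1 (SE 1.15, adjusted p = 0.000136) and 6.99 for Lcn2 (SE 1.33, adjusted p = 2.19e-07) in the authors' deposited table. By the same table, 28 of 30 members were higher in untreated than in exosome-treated injury and none was lower. Havcr1 measured 2.80, 2.19 and 2.51 TPM with exosomes and 1.87 and 1.41 with the mimic, below all scrambled-miRNA libraries. Krt20, a keratin of damaged tubules, had no read in any exosome library, against 9, 605 and 301 reads with scrambled miRNA and 1 and 0 with the mimic.

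Several repair genes were below sham. Sox9 encodes a regulator of the repairing tubule and stood at -2.74 on the log2 scale (SE 0.97, adjusted p = 0.00425) in the authors' deposited table, against 4.51 in untreated injury. It rested on 4, 0 and 3 reads in the exosome libraries, where scrambled-miRNA libraries had 27, 101 and 44 and the mimic libraries 6 and 1, as few as with exosomes. Sox4 was at -1.90 (SE 0.66, adjusted p = 0.00426), Krt18 at -2.45 (SE 0.86, adjusted p = 0.00386) and the cadherin gene Cdh6 at -2.27 (SE 0.89, adjusted p = 0.00765) in the authors' deposited table. Krt18 measured 1.54, 0.565 and 0.841 TPM with exosomes, all below the 2.74 to 5.71 TPM with scrambled miRNA, and 1.89 and 0.248 TPM with the mimic. Ceruloplasmin (Cp), Ccn1, Krt7, Pax2 and Krt19 were the other lower calls. Of the 9 lower genes, 5 (Sox9, Sox4, Krt18, Krt7 and Krt19) were also lower with scrambled miRNA than in untreated injury. Among all genes lower than sham that held for 33.1%. The matricellular gene Spp1 (0.06), the adhesion gene Vcam1 (0.17), the cell cycle inhibitor Cdkn1a (-0.18), the haem oxygenase gene Hmox1 (-0.24) and the metallothionein genes Mt1 (-0.29) and Mt2 (-0.15) did not differ detectably from sham in the authors' deposited table. Spp1 varied within the exosome group, at 199, 79.4 and 62.9 TPM.

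**Figure D3:**
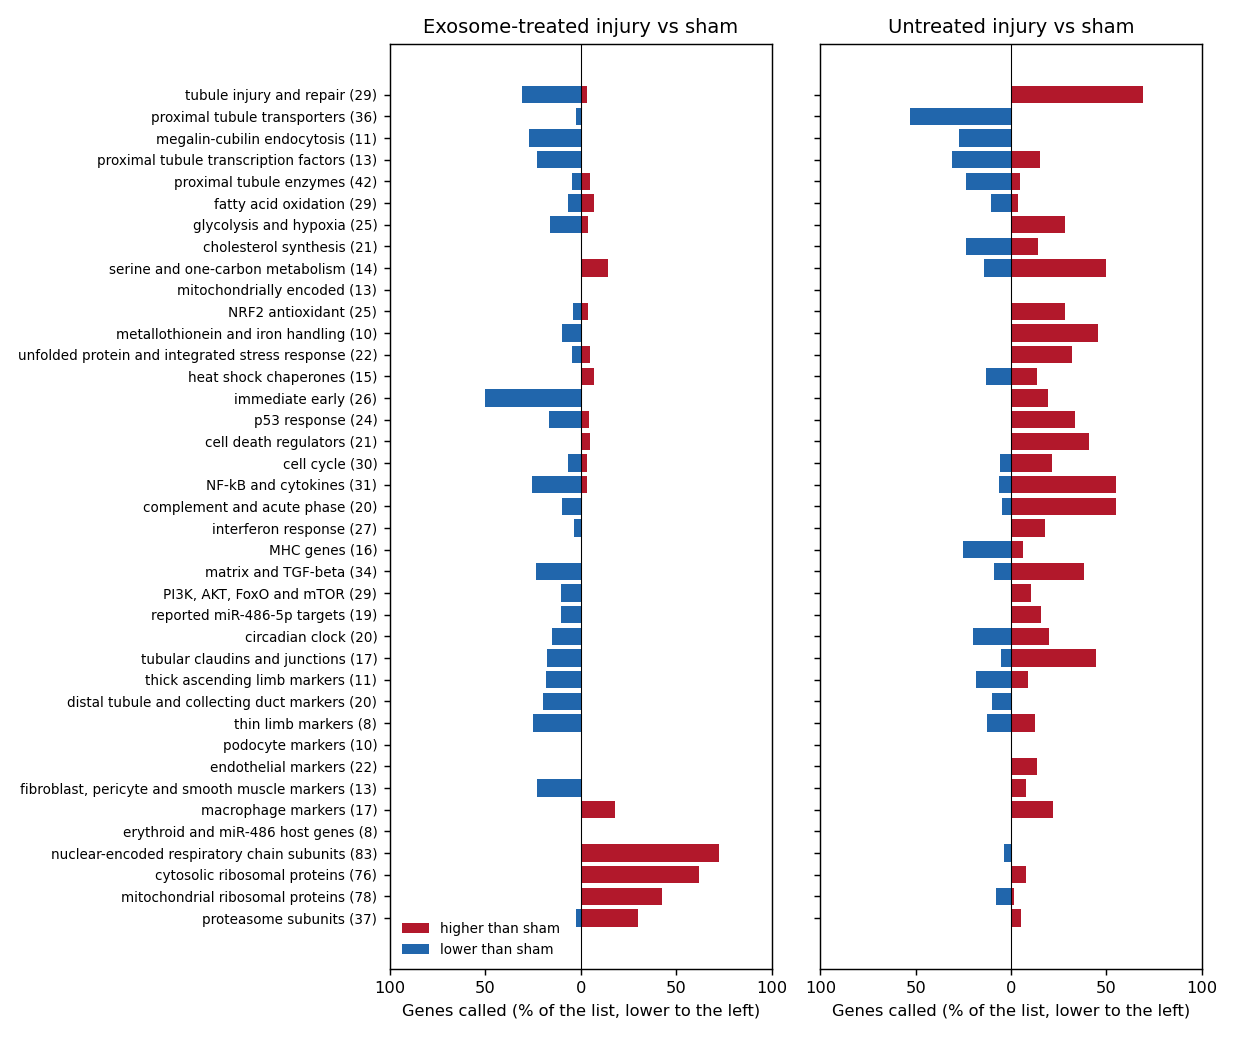
Share of each gene list called higher (red, to the right) or lower (blue, to the left) than sham, with exosome-treated injury in the left panel and untreated injury in the right, from the authors' deposited tables. Numbers in brackets are genes tested with exosomes, and the tubule injury list shows 1 of 29 higher with exosomes and 20 of 29 higher in untreated injury.

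Solute transport gave 1 call. Of 36 proximal tubule transporter genes, Slc13a2, the sodium-citrate transporter, was the only call, at -0.78 (SE 0.29, adjusted p = 0.0129) in the authors' deposited table, and the list median was -0.08. Untreated injury had 19 of the 36 lower than sham, and the direct table of the authors called 11 lower and 1 higher in untreated than in exosome-treated injury. The sodium-phosphate transporter Slc34a1 had a fold of -0.23 (adjusted p = 0.45), the glucose transporter Slc5a2 of 0.21 (adjusted p = 0.503) and the organic anion transporter Slc22a6 of -0.40 (adjusted p = 0.184) in the authors' deposited table. Slc34a1 measured 926, 1001 and 818 TPM with exosomes, 1611, 765 and 241 with scrambled miRNA and 1713 and 1407 with the mimic. The spread among scrambled-miRNA libraries enclosed the exosome values, and both mimic libraries were higher.

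Protein uptake by megalin and cubilin gave 3 lower calls of 11 and none higher. Lrp2, which encodes megalin, stood at -0.85 (SE 0.41, adjusted p = 0.034), Cubn of -0.81 (SE 0.40, adjusted p = 0.0374) and the clathrin adaptor gene Ap2a1 of -0.84 (SE 0.33, adjusted p = 0.0157) in the authors' deposited table. In untreated injury Lrp2 stood at -1.63 and Cubn at -1.29, and the tested differences between untreated and exosome-treated injury, -0.56 (adjusted p = 0.155) and -0.31 (adjusted p = 0.462), missed the threshold in the authors' deposited table. Lrp2 measured 38.9, 46.7 and 49.96 TPM with exosomes and 18.8 to 112 TPM over the other treated libraries. Its messenger is among the longest measured, at 14741 bases.

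Of 13 genes listed as proximal tubule transcription factors, 3 were lower, among them Foxc1 (-1.28) and the mitochondrial regulator Ppargc1a (-0.996, SE 0.46, adjusted p = 0.0232) in the authors' deposited table. Foxc1 rested on 27, 7 and 12 reads in the exosome libraries. Hnf4a, which sets proximal tubule identity, had a fold of -0.03 (adjusted p = 0.933), where untreated injury had -0.77 (adjusted p = 0.0396) in the authors' table. Of 42 proximal tubule enzymes, 2 were higher and 2 lower. Cyp24a1, which degrades vitamin D, was higher at 1.92 (SE 0.83, adjusted p = 0.0117) and the glutathione transferase gene Gsta2 at 1.19 (SE 0.60, adjusted p = 0.0281) in the authors' deposited table. Cyp24a1 ranged widely over the exosome libraries, at 10.7, 0.748 and 5.07 TPM. The oxysterol enzyme gene Cyp7b1 (-2.01) and the peptidase gene Mme (-1.28) were lower in the same deposited table of the authors.

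Fatty acid oxidation calls were near the share of the whole table in both directions. Fatty acid oxidation had 2 of 29 higher, Echs1 (0.73, SE 0.21, adjusted p = 0.00236) and Etfb (0.59, SE 0.23, adjusted p = 0.0252), and 2 lower, Cpt1a (-0.74, SE 0.23, adjusted p = 0.00418) and Pdk4 (-0.27, adjusted p = 0.0155), in the authors' deposited table. The Pdk4 fold is strongly shrunken: the authors' deposited table of untreated over exosome-treated injury gives 6.57 for that gene. Echs1 hydrates the shortened acyl chain inside the mitochondrion, and Cpt1a admits fatty acids to it. Glycolysis and hypoxia genes had 4 of 25 lower and 1 higher. The lower ones were Pfkfb3, which drives glycolysis (-2.84, SE 0.52, adjusted p = 1.01e-06), the hexokinase gene Hk1 (-1.89, SE 0.42, adjusted p = 4.7e-05), the pyruvate kinase gene Pkm (-1.23, SE 0.48, adjusted p = 0.00985) and Hif1a (-0.78, SE 0.22, adjusted p = 0.0021) in the authors' deposited table. All 4 were also lower with scrambled miRNA than in untreated injury, as were 33.1% of all genes lower than sham. Bnip3, a mitophagy receptor gene, was higher at 0.97 (SE 0.21, adjusted p = 6.63e-05) in the authors' deposited table. Serine synthesis had Psat1 (1.40) and Psph (0.91) higher among 14 genes, and none of 21 cholesterol synthesis genes was called.

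Nuclear-encoded subunits of the respiratory chain were mostly higher than sham. This family and the ribosomal and proteasome families were chosen after their values were seen, so their counts are a description. In the authors' deposited table, 60 of 83 subunit genes were higher than sham and none was lower, with a median log2 fold of 0.77 and 77 of the 83 above 0. Cox7b, a subunit of cytochrome oxidase, had a fold of 1.44 (SE 0.25, adjusted p = 2e-07), Ndufa4 of 1.16 (SE 0.28, adjusted p = 0.000206) and the ATP synthase component Atp5md of 1.34 (SE 0.20, adjusted p = 1.71e-09) in the authors' deposited table. Pet100, needed to assemble cytochrome oxidase, was at 1.46 (SE 0.23, adjusted p = 1.07e-08) there, in the table the authors deposited. The uncalled subunits included several large ones: Atp5a1 (-0.22), Atp5b (0.00), Sdha (-0.20), Ndufs1 (-0.02) and Uqcrc1 (0.13) in the authors' deposited table. None of the 13 mitochondrially encoded genes was called, with a median of 0.01.

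Cox7b measured 7100, 6371 and 6145 TPM with exosomes, 4820, 3451 and 4544 with scrambled miRNA and 3563 and 3521 with the mimic. Ndufa4 measured 1726, 1845 and 1540 TPM with exosomes and no more than 1085 in any other treated library. Every exosome library exceeded every other treated library for both genes and for 22 of the 83 subunits. Across all tested genes that held for 2.21%, and the reverse order, every exosome library below the rest, held for 8.37%. No such share is given here for genes of like length. The exosome libraries held the largest shares of reads on transcripts under 1000 bases, and the subunits had a median length of 571 bases. The calls of these subunits against sham rest on the same exosome libraries. Summed over the family, levels were 52236, 48041 and 42434 TPM with exosomes, 48565, 34206 and 35984 with scrambled miRNA and 37768 and 36184 with the mimic, so the first scrambled-miRNA library overlapped the exosome range. In the authors' deposited tables, untreated injury had none of the 83 higher than sham and 3 lower, the mimic group none either way, and 64 were lower in untreated than in exosome-treated injury. Untreated against scrambled-miRNA-treated injury, which crosses the same deposits, had 18 of the 83 lower in untreated injury and none higher. Of all genes tested there, 6.75% were lower. Of the 60 subunits higher than sham, 18 were also higher with scrambled miRNA than in untreated injury, against 26.3% of all genes higher than sham. In endothelial cells with exosomes against sham, where 616 of 18377 genes were higher (3.35%) and 620 lower (3.37%), none of the 83 was called.

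Ribosomal and proteasome genes were also called higher than sham. Of 76 cytosolic ribosomal protein genes, 47 were higher and none lower in the authors' deposited table, led by Rps27a (1.33), Rps21 (1.29) and Rpl41 (1.27), with a median of 0.75. Of 78 mitochondrial ribosomal protein genes 33 were higher and none lower, with a median of 0.50. Proteasome subunits had 11 of 37 higher, among them Psma7 (1.05, SE 0.26, adjusted p = 0.000349), and 1 lower, Psmd3 (-0.47), in the authors' deposited table. With scrambled miRNA, 15 of the 33 higher mitochondrial ribosomal genes were also higher than in untreated injury. That held for 1 of the 47 cytosolic ribosomal genes, none of the 11 proteasome genes and 26.3% of all genes higher than sham. Ribosomal protein genes have many processed pseudogenes, and how reads were shared between copies is not given in the sources used here. Of 680 tested processed pseudogenes 109 were called higher (16.0%), against 805 of 13423 protein-coding genes. Cytosolic ribosomal transcripts summed to 42608, 35404 and 36895 TPM with exosomes and 53698 TPM in the third scrambled-miRNA library, and no member had all exosome libraries above all other treated ones. Within the later deposit 2 of 78 mitochondrial ribosomal genes had every exosome library above the other treated libraries and 4 had every one below, and of 37 proteasome genes none was above and 2 were below. Those shares are near or under the 2.21 and 8.37% of all tested genes.

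These families share short transcripts, and transcript length moved with the calls over the whole table. Median length was 736 bases for genes higher than sham, 2886 for genes lower and 1722 for all tested genes. When tested genes were divided into 5 equal groups by length, 19.4, 7.39, 2.67, 0.975 and 0.817% were higher with exosomes than in sham from the shortest group to the longest. The shares lower ran the other way, at 1.32, 2.14, 4.43, 6.32 and 10.6%. Untreated injury against sham, within the earlier deposit, showed no such order: 9.49 to 13.2% were higher and 7.26 to 10.03% lower over the same groups. Untreated against exosome-treated injury had 9.59% higher in the shortest group and 32.3% in the longest. The other tubular comparisons of later with earlier libraries had the same order. Untreated against scrambled-miRNA-treated injury had 5.69% higher in the shortest group and 18.0% in the longest, and 12.2% and 2.51% lower. The mimic group had 0.314% lower than sham in the shortest group and 1.79% in the longest. Endothelial exosome-treated injury against sham did not have this order. There, 3.45% were higher in the shortest group and 2.38% in the longest, and 3.80% and 1.43% were lower. Respiratory chain subunits had a median length of 571 bases, and their 60 of 83 stands beside the 19.4% of the shortest group. After the median fold of genes of like length was taken from each gene, the family medians were 0.64 for the respiratory chain, 0.60 and 0.41 for cytosolic and mitochondrial ribosomes and 0.29 for the proteasome. The immediate early median became -0.55 and the NF-kB median -0.21. These corrections ran from -0.22 to 0.15 on the log2 scale and left the deposited p values as they were. The part of transcript length in single calls was not tested.

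**Figure D4:**
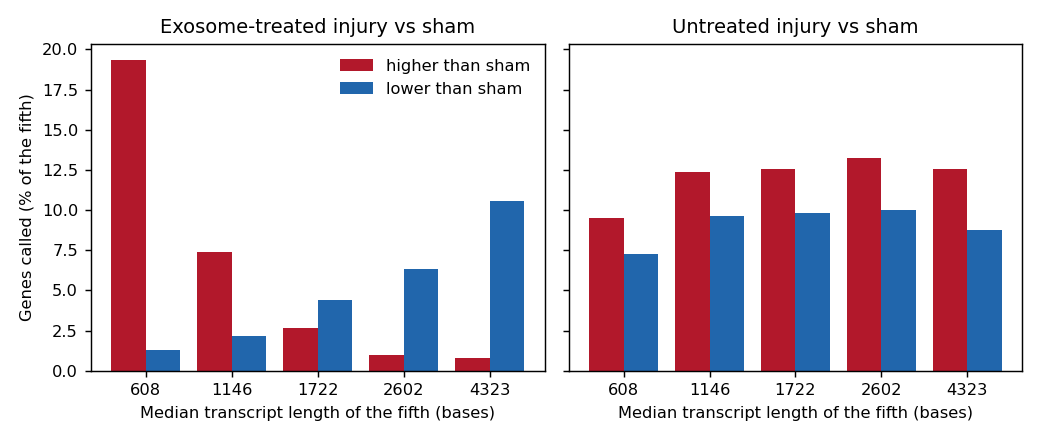
Percentage of genes called higher (red) or lower (blue) than sham in 5 equal groups of tested genes ordered by transcript length, labelled by the group's median length in bases, from the authors' deposited tables. With exosomes the share higher fell from 19.4 to 0.817% and the share lower rose from 1.32 to 10.6% with length, while untreated injury showed no such order.

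Stress defence genes gave few calls. Gpx4, the peroxidase that guards membranes against ferroptosis, was the one called of 21 cell death regulators, at 1.28 (SE 0.26, adjusted p = 8.47e-06) in the authors' deposited table. It measured 4078, 3240 and 3551 TPM with exosomes, 2707, 2482 and 3649 with scrambled miRNA and 2174 and 2331 with the mimic, so only the third scrambled-miRNA library reached the exosome range. The chaperonin gene Hspe1 (1.15, SE 0.27, adjusted p = 0.000194) was the one call of 15 heat shock genes in the authors' deposited table. Of 25 NRF2 targets, Prdx1 was higher (0.66) and Ephx1 lower (-1.02), and of 22 unfolded protein response genes Manf was higher (0.68) and Ppp1r15a lower (-1.24) in the authors' deposited table. The p53 response had 4 of 24 lower, Btg2 (-1.57), Bbc3 (-1.59), Gdf15 (-1.56) and Gadd45a (-1.49), and Rrm2b higher (0.70), per the authors' deposited table. All 4 lower genes were also lower with scrambled miRNA than in untreated injury, as were 33.1% of all genes lower than sham. Of 30 cell cycle genes, Ccne2 was higher (1.55) and Ccnb1 (-3.00) and Ccnd2 (-0.24) were lower in the authors' deposited table. The Ccnd2 fold is strongly shrunken (SE 0.47, adjusted p = 0.0131 in that table).

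Of 10 metallothionein and iron genes Cp alone was lower. Of 20 clock genes 3 were lower, Nr1d1 (-1.01), Bhlhe40 (-0.89) and Cry1 (-0.22), and of 17 claudin and junction genes 3 were lower, Cldn3 (-1.38), Cdh16 (-0.62) and Cldn4 (-0.28), in the authors' deposited table. Shrinkage also bears on Cldn4 and Cry1, which stood at 6.49 and 5.35 in untreated over exosome-treated injury in the authors' deposited table.

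Matrix and TGF-beta genes had 8 of 34 lower and none higher, with a median of -0.37 in the authors' deposited table. The signal transducer gene Smad3 stood at -1.19 (SE 0.42, adjusted p = 0.00676) and the collagen gene Col4a1 at -0.87 (SE 0.26, adjusted p = 0.00305) in the authors' deposited table. Col4a1 measured 21.8, 36.8 and 24.2 TPM with exosomes, 91.0, 72.8 and 69.1 with scrambled miRNA and 52.4 and 28.3 with the mimic. Exosome libraries were all below the scrambled-miRNA libraries and overlapped the mimic. Untreated injury had 13 of 34 higher than sham and 3 lower, and 21 of 34 were higher in untreated than in exosome-treated injury, with 1 lower, in the authors' deposited tables. Of these 8 lower genes, Smad3 alone was also lower with scrambled miRNA than in untreated injury, against 33.1% of all genes lower than sham.

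Genes of the PI3K, AKT, FoxO and mTOR pathway had 3 of 29 lower and none higher. Rptor, the scaffold of mTOR complex 1, was at -1.20 (SE 0.42, adjusted p = 0.00624), the PI3K regulatory subunit Pik3r1 of -0.89 (SE 0.26, adjusted p = 0.00218) and the growth factor receptor Igf1r of -0.71 (SE 0.24, adjusted p = 0.00953) in the authors' deposited table. Of 19 tested genes reported as targets of miR-486-5p, Pik3r1 and Igf1r were the 2 lower, none was higher, and the median was -0.36. That median was -0.19 after the correction for length, the median target being 2911 bases long and the median pathway gene 4565. Of all tested genes 4.96% were lower, with 6.32% in the fourth and 10.6% in the longest of the 5 length groups. The counts of lower calls in both lists are thus near the shares of long genes. Foxo1 stood at -0.36 (SE 0.29, adjusted p = 0.253) in the authors' deposited table. Foxo1 measured 2.36, 1.53 and 1.82 TPM with exosomes, 3.33, 3.19 and 1.60 with scrambled miRNA and 3.05 and 2.64 with the mimic, so the third scrambled-miRNA library lay inside the exosome range. Pik3r1 measured 4.90, 5.41 and 7.23 TPM with exosomes, 15.5, 10.6 and 9.75 with scrambled miRNA and 8.89 and 4.93 with the mimic, so exosome libraries were below the scrambled-miRNA range and overlapped the mimic. No miR-486-5p target was called against sham in the mimic group.

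Markers of other cells moved with some of these calls. Thick ascending limb markers had 2 of 11 lower, Slc12a1 (-1.57, SE 0.63, adjusted p = 0.0102) and Umod (-1.18, SE 0.65, adjusted p = 0.0324), and distal tubule and collecting duct markers 4 of 20 lower (Scnn1a, Trpv5, Aqp3 and Foxi1), in the authors' deposited table. In bulk samples fewer cells of a type and less RNA per cell cannot be told apart. Umod measured 310.2, 128 and 112 TPM with exosomes, within the 86.6 to 401 TPM of the other treated libraries. Fibroblast, pericyte and smooth muscle markers had 3 of 13 lower (Cspg4, Acta2 and Myh11), and their 15 listed genes summed to 4.32 to 27.0 TPM with exosomes, 81.2 to 189 with scrambled miRNA and 7.47 and 14.2 with the mimic. Those values stand beside the lower matrix genes, and their part in that result was not tested. Thin limb markers had 2 of 8 lower, among them Bst1 (-2.83). None of 22 endothelial markers and none of 10 podocyte markers was called. The medians of the podocyte (-0.07), endothelial (-0.07) and fibroblast (-0.12) lists became 0.00, 0.00 and 0.04 after the correction for length, so their direction is not firm.

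Macrophage markers had 3 of 17 higher than sham in the authors' deposited table, Fcgr1 (2.72), Lyz2 (1.17, SE 0.50, adjusted p = 0.0165) and C1qb (1.05, SE 0.67, adjusted p = 0.0478). Fcgr1 had a mean normalized count under 50. Lyz2 and C1qb were also higher with scrambled miRNA than in untreated injury, as were 26.3% of all genes higher than sham. The 19 listed markers summed to 39.0, 19.6 and 15.4 TPM with exosomes, 38.1 to 76.7 with scrambled miRNA and 13.1 and 19.4 with the mimic. Lyz2 measured 5.87, 4.43 and 2.98 TPM with exosomes. Adgre1, Csf1r and Ptprc were not called. No lymphocyte marker (2 tested), erythroid gene (8 tested) or sex check gene (5 tested) was called. Neutrophil markers gave no call in 7 tested, and 4 of the 11 found in the table (Ly6g, Retnlg, Camp and Ngp) had no read in any exosome library. Antibody genes were among the largest increases, with Jchain at 2.46 (SE 0.91, adjusted p = 0.0053) and Igkc at 2.35 (SE 1.19, adjusted p = 0.0173) in the authors' deposited table. Igkc measured 18.0, 12.8 and 11.6 TPM with exosomes and 2.14 to 28.3 TPM in the other treated libraries.

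The largest folds outside the lists were in genes of low level. Downward, Prom2 (-4.34), Arc (-4.32), Cplane1 (-3.91), Tbx3 (-3.68), Dusp8 (-3.51), Thbs1 (-3.45), Wnt7b (-3.20), Insrr (-3.17), Rnd1 (-3.08) and Abcc1 (-3.05) led in the authors' deposited table among named genes with a mean normalized count of at least 100. Arc, an activity-induced gene, had a mean normalized count of 456 over all tubular libraries but at most 0.486 TPM in any of the 8 later ones. It was also higher in untreated than in scrambled-miRNA-treated injury, at 3.91 (adjusted p = 4.03e-05) in the authors' deposited table. Abcc1, a drug and glutathione exporter gene, was lower with the mimic too (adjusted p = 3.97e-12 against sham) and measured 2.17, 0.302 and 0.356 TPM with exosomes. Upward, Snhg11 (2.70), Afap1l2 (2.43) and Atf7ip (2.36) led with the antibody genes. Afap1l2 measured 0.639, 9.54 and 0.868 TPM on 60, 115 and 78 reads. Atf7ip measured 1.52, 24.6 and 1.23 TPM on 163, 150.2 and 155 reads. The second exosome library was the highest in TPM for both genes, but its read count for Atf7ip was the lowest of the group. Folds of both genes without that library could not be computed from the authors' deposited table.

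The comparison of scrambled-miRNA-treated with untreated injury shares no library with exosome against sham. Of the 993 genes higher with exosomes than in sham, 261 (26.3%) were also higher with scrambled miRNA than in untreated injury, which is 22.9% of that comparison's 1139, and 5 went the opposite way. Of the 789 lower genes, 261 (33.1%) were also lower there, 14.0% of its 1866, and 7 were opposite. Both comparisons set later libraries against earlier ones. Within the later deposit, 167 of the 993 higher genes had every exosome library above all scrambled-miRNA and mimic libraries (16.8%, against 2.21% of tested genes) and none had every one below. Of the 789 lower genes, 210 had every exosome library below all of those (26.6%, against 8.37%) and 1 had every one above. The calls against sham rest on the same exosome libraries, so these shares are not independent of the calls. Endothelial cells with exosomes against sham shared 25 of the higher genes in the same direction and 28 in the opposite one, and 16 and 46 of the lower genes.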

How the data were processed

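Transcript-level estimated counts and TPM were made by the authors and deposited per library. The tools named there, per the submitters' processing notes, are Salmon (version 0.13.1) and DESeq2, on the build GRCm38. The 136202 transcripts were summed to 53392 genes by the gene IDs in their names. The log2 fold changes, their standard errors, the p-values with adjusted p and the base mean (a signal, the mean normalized count of all libraries) were computed by the authors and deposited in comparison tables with DESeq2's column names, first-named group over second. Base means are equal in the 5 tubular tables, so those libraries were normalized together. Folds are shrunken, most in the mimic table, where absolute fold divided by SE had a median of 0.197 and the p-values give 0.743.

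No test was run here. A gene was called at an adjusted p under 0.05 in the authors' table. Direction was checked against TPM (log2 with a pseudocount of 1) over 11886 genes with r = 0.515 to mimic and 0.776 to scrambled miRNA.

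Members, the 38 gene lists and the alternatives were chosen with earlier results of these data known, and 785 of 793 list entries matched. Named genes are the 15 largest called folds per direction with a base mean of at least 100 (predicted genes and pseudogenes left out), up to 4 calls per list and direction with a base mean of at least 50, and 23 always named, 121 in all. Some named genes are not reported here. Others named were chosen after their values were seen. A gene's length is the mean over its transcripts weighted by mean TPM in the tubular libraries, and length-corrected folds subtract the median of 20 length bins (chosen after seeing the data, as was a repeat on protein-coding genes alone). Positions are GENCODE M21 and RefSeq on GRCm38. Python 3.11.15, pandas 2.3.3, NumPy 2.4.6 and SciPy 1.17.1 were used.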

Additional observations from a re-analysis of the deposited data

How the results depend on the processing

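At an adjusted p under 0.01 the counts against sham were 539 higher and 293 lower, and at 0.1 there were 1250 lower. With an absolute log2 fold of at least 1 they were 303 and 388. Distinct listed genes called higher numbered 17, with 6 at 0.01 and 30 at 0.1, and those called lower 81, with 29 at 0.01. Genes shared with scrambled miRNA against untreated injury numbered 83 higher and 69 lower at 0.01, and 459 and 470 at 0.1. The median exosome level of named genes was 3.50 TPM, 4.90 TPM after rescaling without mitochondrially encoded transcripts, and 3.16 to 4.01 TPM when each exosome library was left out in turn. Among single named genes the call was lost for 46 at an adjusted p under 0.01, for 18 with Benjamini-Hochberg adjustment over every gene with a p-value and for 3 at a base mean of at least 10, and 1 gained it at 0.1. Re-centred folds kept the deposited p-values and the threshold of 0.1 cannot lose a call, so these settings say nothing about stability. The authors' comparisons could not be refitted without a library. No paired analysis was possible because the comparison with sham comes from the authors' table and no test was run here. Depth limits genes with few reads, such as Sox9 and Ccl2, and shrunken folds understate changes, also of abundant genes such as Pdk4 and Cldn4.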
